A study of Oryctolagus cuniculus with 10 samples.

Results

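The proteasome genes described here are the genes of the deposited expression table whose symbol starts with PSM, a letter from A to G and a number. They number 46 of the 19123 genes in the table. There are 16 genes of the core particle (PSMA and PSMB), 20 of the regulatory cap (PSMC and PSMD), 4 activators (PSME), the inhibitor PSMF1 and 4 assembly chaperones (PSMG). PSMC3IP also fits the symbol rule, although its product, a partner of PSMC3 known for its part in meiotic recombination, is not a proteasome subunit. It is placed in none of these classes but is counted in every total over the 46 genes. The genes were measured by sequencing of poly-A RNA from the livers of wild-type male New Zealand white rabbits, which were starved before the livers were taken. The 5 control rabbits received for 4 weeks a diet with 1% sunflower oil. The other 5 rabbits were given the same oil-enriched diet with 0.5% squalene, a triterpene from which sterols are made, over the same 4 weeks. Age is not given in the sources used here, and all rabbits ate the sunflower oil.

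The proteasome is the barrel-shaped protease that degrades proteins tagged with ubiquitin. Stacked rings of alpha and beta subunits form its core, the beta rings carry the catalytic sites inside, and a cap of ATPases and other subunits binds, unfolds and feeds in the substrate. In the liver it takes part in the turnover of metabolic enzymes and of apolipoprotein B. When proteasome activity is short, the transcription factor NFE2L1 is known to raise the genes of core and cap together.

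The table gives 1 level per gene and diet and no value per rabbit. The comparison therefore asks how far the level on the squalene diet lay from that on the control diet, without any replicate error or test, and no value below can be called larger or smaller than the spread between rabbits. The levels of all 46 genes had lost their decimal mark in the table, so no level is printed and levels cannot be compared between genes. The ratio of both levels of a gene was kept, and every value below is this ratio, squalene over control, on the log2 scale or as a fold. The scale of the levels is not stated, so a fold here is a fold of these levels and may differ from one in RNA. The lost mark leaves the ratio open to a power of 10, and the one closest to equal levels was taken, so that a log2 ratio beyond 1.66 in either direction would be misread. The 10 libraries had 45.26 M to 46.12 M clean reads each, and ribosomal RNA made up 0.23% to 0.79% of reads. These library values match no sample label and were not compared between diets, and their part in the results was not tested.

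Of the 46 genes, 32 (69.6%) had a higher level on the squalene diet and 14 a lower one, whereas 52.7% of all genes in the table were higher. The median log2 ratio was 0.20 over the 46 genes and 0.02 over all genes. Set against genes of like length, as described below, the median of the 46 genes was 0.11. A fold of 1.2 was used to count larger differences. By this measure 13 of the 46 genes (28.3%) were higher, beside 20.7% of all genes, and 2 of them (4.35%) were lower, beside 17% of all genes. Against genes of like length, the share that was higher by this fold turned from above to below that of all genes, with 7 of the 46 (15.2%) beside 18.5%, and 5 (10.9%) were lower beside 16.5%. The largest ratios were a log2 ratio of 0.51 (1.42-fold higher) for the ATPase PSMC6 and -0.48 (1.40-fold lower) for the activator PSME3. Beyond a fold of 1.5, used as an alternative, none of the 46 was found, against 4.7% of all genes higher and 3% lower. The classes differed in direction, as the plot of log2 ratios by subunit class shows.

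**Figure D1:**
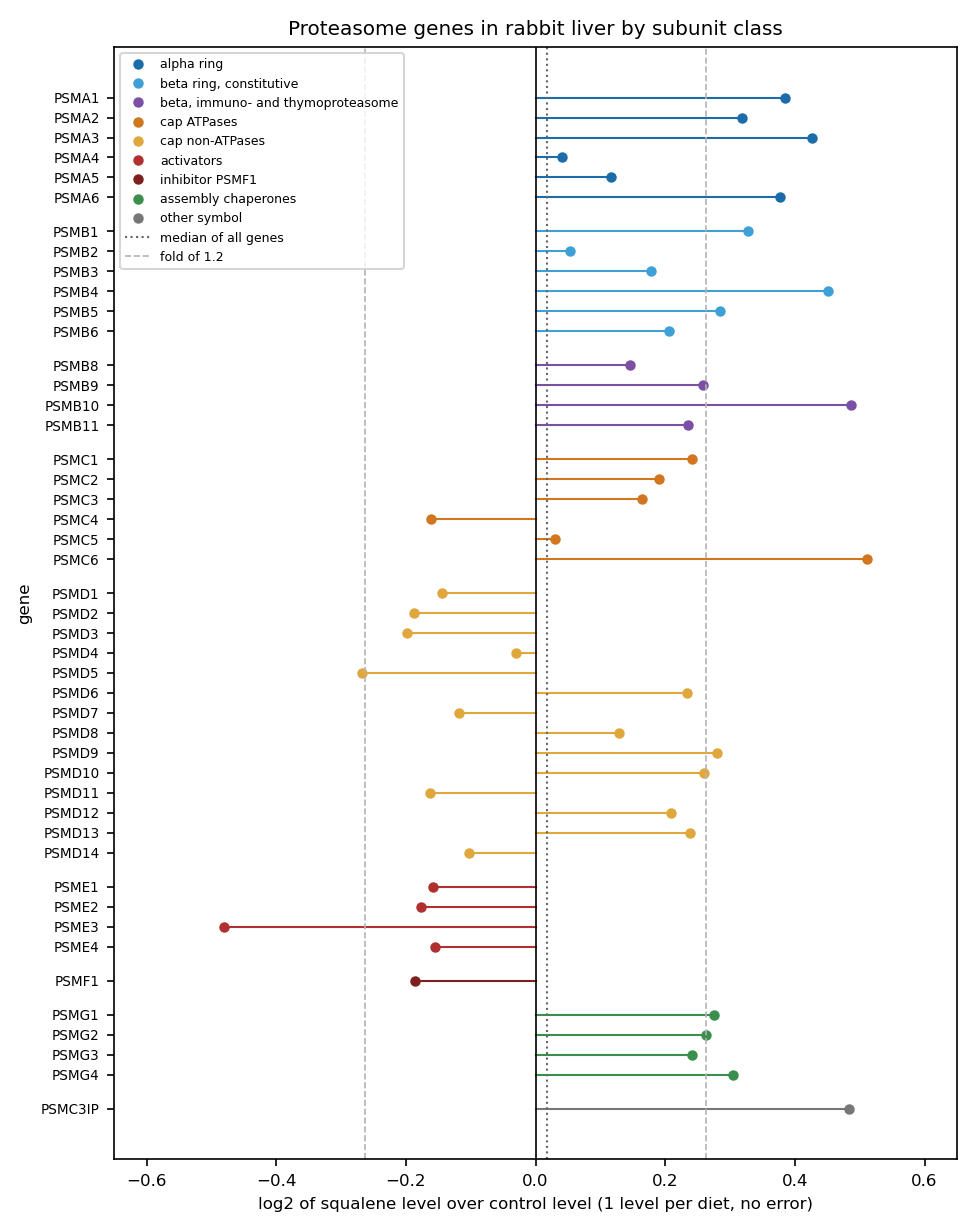
The x axis is the log2 ratio of the squalene level over the control level, and each point is 1 of the 46 genes, grouped by subunit class from top to bottom, with dashed lines at a fold of 1.2 and a dotted line at the median of all genes (0.02). All 16 core genes and the 4 PSMG chaperones lie right of 0, the 4 PSME activators and PSMF1 lie left of it, and the PSMD genes fall on both sides.

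All 16 measured genes of the core particle were higher on the squalene diet, beside 52.7% of all genes. Their median log2 ratio was 0.27, with a range from 0.04 to 0.49. Of these 16, 8 (50%) were beyond a fold of 1.2, beside 20.7% of all genes. Against genes of like length this share was 31.2%, beside 18.5% of all genes. The 16 genes include PSMB11, described below as a subunit of the thymus. It lay 0.28 above genes of like length and is counted in the 31.2% but not in the 50%. In the alpha ring, whose subunits form the gate and the docking surface for the cap, PSMA3 had the largest log2 ratio with 0.43 (1.34-fold). It was followed by PSMA1 with 0.38, PSMA6 with 0.38 and PSMA2 with 0.32. PSMA5 and PSMA4 had the smallest ratios of the ring, at 0.12 and 0.04. By the orthology entries in the table they occupy ring positions 5 and 3. The 4 with larger ratios occupy positions 7, 6, 1 and 2. This split was made on the same ratios and without replicate error, so it is a description only. Position 4 belongs to PSMA7, which has no row under its own symbol, and a predicted gene for it was at 0.22.

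In the beta ring, PSMB4, a structural subunit, had a log2 ratio of 0.45 (1.37-fold) and PSMB1 one of 0.33 (1.26-fold). PSMB5, which carries the chymotrypsin-like site, had 0.28 (1.22-fold), and PSMB6, which carries the caspase-like site, had 0.21 (1.15-fold). PSMB3 and PSMB2, both without a catalytic site, were at 0.18 and 0.05. The ratios of the catalytic subunits thus lay within the range of the structural ones.

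The immunoproteasome forms when interferon-inducible subunits take the place of the constitutive catalytic ones and shift the peptides that are cut towards those presented by class I molecules. PSMB10, which replaces PSMB7, had the largest log2 ratio of the core with 0.49 (1.40-fold). PSMB9, which replaces PSMB6, had 0.26 beside 0.21 for PSMB6. PSMB8, which replaces PSMB5, had 0.15 (1.11-fold) beside 0.28 for PSMB5. PSMB7 appears under other symbols, at 0.07 and 0.27, so that the ratio of the inducible subunit was above that of its constitutive counterpart at the sites of PSMB10 and PSMB9 and below it at that of PSMB8. PSMB11, known in other mammals as the beta subunit of the thymus, was at 0.23, and its gene neighbours PSMB5 in the RefSeq annotation of the assembly mOryCun1.1.

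The inducible subunits did not share their direction with all genes of antigen processing and the interferon response. Of 12 such genes listed, 11 were measured, of which 5 had a higher and 6 a lower level, and the median log2 ratio was -0.01. ERAP1, which trims peptides, had a log2 ratio of -0.33 (1.25-fold lower). B2M, the light chain of class I molecules, had 0.72 (1.64-fold higher). In the same RefSeq annotation, PSMB8 lies between the peptide transporter genes TAP1 and TAP2, and PSMB9 lies next to TAP1. TAP1 and TAP2 had log2 ratios of -0.24 and -0.07, opposite in sign to those of both PSMB neighbours.

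Of the 20 cap genes, 11 were higher and 9 lower, with a median log2 ratio of 0.08. The higher share of 55% is near the 52.7% of all genes. Their range from -0.27 to 0.51 covers that of the core. Among the 6 ATPases, which form the ring that unfolds substrates, 5 (83.3%) were higher. PSMC6 stood at 0.51 (1.42-fold), the largest ratio of the 46 genes, and the next was PSMC1 at 0.24 (1.18-fold). PSMC2 was at 0.19, PSMC3 at 0.16 and PSMC5 at 0.03, while PSMC4 was at -0.16 (1.12-fold lower).

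Of the 14 non-ATPase genes, 6 (42.9%) were higher, beside 52.7% of all genes, and 8 lower, with a median log2 ratio of -0.07. PSMD1 and PSMD2, the large scaffold subunits of the base, were both lower, at -0.14 and -0.19. PSMD4, a receptor for ubiquitin chains, was at -0.03. The lid held 4 higher (50%) and 4 lower genes, near the share over all genes. PSMD14, the enzyme that removes ubiquitin chains from the substrate, and its partner PSMD7 were at -0.10 and -0.12. Among the other lid subunits, PSMD13, PSMD6, PSMD12 and PSMD8 were at 0.24, 0.23, 0.21 and 0.13, whereas PSMD3 and PSMD11 were at -0.20 and -0.16. No lid gene was beyond a fold of 1.2 in either direction, beside 20.7% of all genes higher and 17% lower by this fold.

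The remaining PSMD genes code for chaperones that hold ATPases during assembly of the base and leave the finished complex. PSMD9 had a log2 ratio of 0.28 (1.21-fold), PSMD10, also known as gankyrin, had 0.26, and PSMD5 had -0.27. PAAF1, another base chaperone outside the symbol rule, was at 0.22. PSMD5 and PSME3 are the 2 genes counted as lower by a fold over 1.2. The counts depend on this limit, since 4 of the 46 genes (PSMB9, PSMD10, PSMG2 and PSMD5) lie within 0.01 of it on the log2 scale.

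All 4 activators were lower on the squalene diet, as were 47.3% of all genes, with a median log2 ratio of -0.17. Their range from -0.48 to -0.16 does not overlap that of the core, although a PSME4-like gene outside the symbol rule, LOC103349620, was at 0.76, above the ratio of each core gene. Against genes of like length the ranges overlap. There PSME4 was at 0.009, above the core genes PSMA4 (-0.07), PSMB2 (-0.06) and PSMA5 (0.002). Activators bind the ends of the core in place of the cap. PSME3, which forms a nuclear ring of its own, had -0.48 (1.40-fold lower). PSME1 and PSME2, which form a joint ring and are inducible by interferon gamma, had -0.16 and -0.18. PSME4, a single-chain nuclear activator, had -0.16. PSMF1, which blocks the core in the test tube, was at -0.19 (1.14-fold lower).

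The chaperones of core assembly were higher throughout, beside 52.7% of all genes. PSMG1 and PSMG2 form a dimer that starts the alpha ring and were at log2 ratios of 0.27 and 0.26. PSMG3 and PSMG4 form the other dimer and were at 0.24 and 0.30. The spread between these 4 genes, from 0.24 to 0.30, was the narrowest of the classes with 4 or more genes. POMP, which guides the beta subunits onto the alpha ring and is the first substrate of the new core, was at 0.40 (1.32-fold). PSMC3IP was at 0.48 (1.40-fold).

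Several proteasome genes appear in the table under other symbols or as predicted genes, and 11 were found by their description. PSMA7 is represented by a predicted gene of 437 bases with a log2 ratio of 0.22. PSMB7, which carries the trypsin-like site, is represented by LOC100349446 at 0.07 and LOC103352017 at 0.27, beside 0.49 for its inducible counterpart PSMB10. The small cap subunit DSS1 is LOC108178368, at 0.24. Other predicted genes resemble subunits that have a row of their own, so that reads could be shared between both rows. For PSMA2 the predicted gene was at 0.57 and the named one at 0.32, and for PSMA6 they were at 0.21 and 0.38. For PSMC4 they were at -0.14 and -0.16, for PSMC5 at 0.32 and 0.03, and for PSMD10 at 0.09 and 0.26. For PSMC1 the signs differed, with -0.56 for the predicted gene and 0.24 for the named one. LOC103349620 (1.69-fold higher) was opposite in sign to PSME4. The ratios of these subunits are therefore uncertain, and for PSMC1 and PSME4 the direction is too. With the 11 genes added, the core had a median of 0.26 with none lower, and the activators were no longer lower throughout.

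The ratio moved with gene length over the whole table. When all genes were divided into 10 equal parts by length, the median log2 ratio was 0.11 in the shortest genes, up to 786 bases, and -0.16 in those of 5424 bases or more. The share of genes with a higher level on the squalene diet was 64% in the first and 30% in the last of these parts. It was 67.4% for genes of 787 to 1159 bases, where 14 proteasome genes lie, of which 13 were higher. Core genes are short, with a median of 975.5 bases, while the cap genes had a median of 1709 bases and the activators one of 2018.5 bases. Across the 46 genes, length and log2 ratio had a Spearman rho of -0.46, and across all 19123 genes it was -0.28. These are descriptions across genes of the same libraries. Within the core alone rho was 0.09 over 16 genes, and within the cap alone it was -0.31 over 20 genes.

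**Figure D2:**
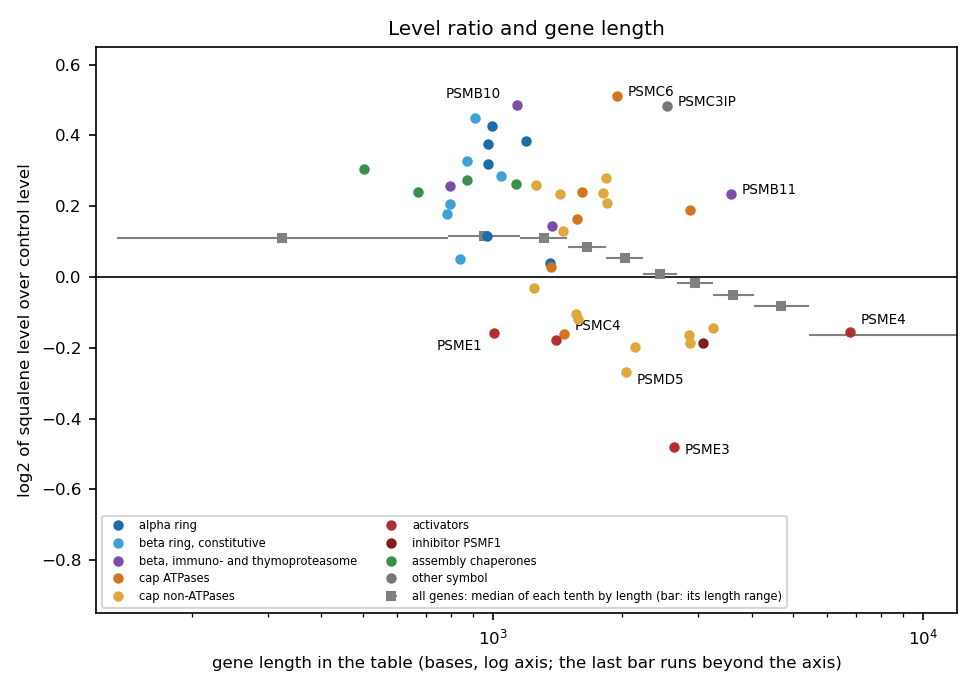
Each coloured point is 1 of the 46 genes, by its length in bases on a log axis and the log2 ratio of the squalene level over the control level. Grey squares are medians of all genes in 10 parts by length, from 0.11 in the shortest to -0.16 in the longest, with bars for the length range of each part.

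Set against genes of like length, 14 of the 16 core genes lay above the median of their length part, by a median of 0.19. PSMA4 and PSMB2 lay below it, by -0.07 and -0.06. For the 20 cap genes the median difference was -0.032, with 10 above, so the small positive median of the cap turned its sign. The activators lay below by a median of -0.28, and PSME4 alone of them lay above its length part, by 0.01. All 4 PSMG genes lay above, by a median of 0.15. The part of the length trend in the proteasome ratios was not tested.

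Genes that work with the proteasome were counted in the same way, beside the 52.7% of all genes that were higher. Of 15 listed maturation and associated factors, 10 were measured and 8 of them were higher, with a median log2 ratio of 0.16. Besides POMP, the largest ratios were those of ZFAND5, a proteasome activator, and UCHL5, a deubiquitinase of the cap, both at 0.30. Of 12 listed genes of proteasome transcription around NFE2L1, 10 were measured, 2 higher and 8 lower, with a median of -0.14. These counts are not of the NFE2L1 pathway alone, since the list also holds the transcription factors STAT3, NFYA (-0.10) and FOXO4 (0.02). NFE2L1 itself was at -0.17 (1.13-fold lower), DDI2, the protease that cleaves it, was at -0.29, and the related factor NFE2L2 was at -0.11. SYVN1, a ubiquitin ligase of the endoplasmic reticulum, had -0.37, and STAT3, a transcription factor of cytokine signalling, had -0.27. Of 16 listed ubiquitin and shuttle genes, 10 were measured, 2 higher and 8 lower, with a median of -0.20. FAF2, a partner of VCP, was at -0.32, the shuttle UBQLN4 at -0.29, and UBA1, the main enzyme that activates ubiquitin, at -0.29, while the ubiquitin gene UBB was at 0.11. The genes of the NFE2L1 and ubiquitin lists are long, with median lengths of 3572 and 3630 bases, and the median log2 ratio of all genes in length parts like theirs was -0.05 for both lists.

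**Figure D3:**
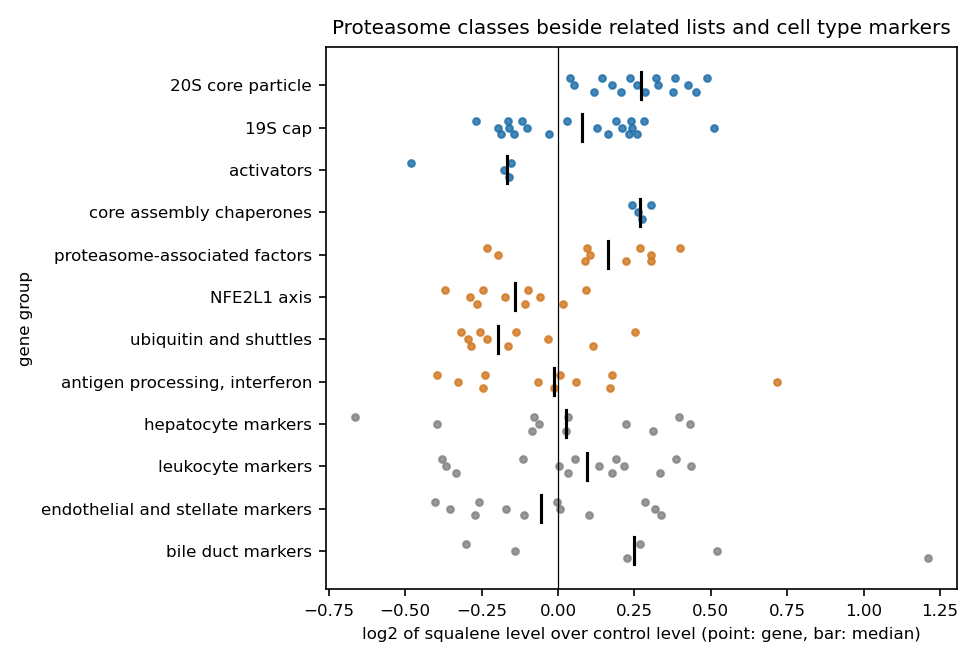
Each point is a gene on the log2 ratio of the squalene level over the control level, and each bar is the median of its group. The core (median 0.27) and its assembly chaperones (0.27) lie right of 0, whereas the NFE2L1 (-0.14) and ubiquitin lists (-0.20) lie mostly left of it and the cell type markers spread to both sides.

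In liver tissue, a difference in the share of a cell type and a difference in RNA per cell cannot be told apart. Markers of other cells were therefore set beside the proteasome genes, and their counts beside the 52.7% of all genes that were higher. Of 11 measured hepatocyte markers, 6 (54.5%) were higher and 5 lower, and 6 lay above the median of genes of like length. They ran from -0.66 for HNF4A to 0.43 for TTR, with ALB at 0.39 and CPS1 at -0.39. Of 14 measured leukocyte markers, 10 (71.4%) were higher and 4 lower, with a median log2 ratio of 0.10, and 9 lay above genes of like length. The pan-leukocyte gene PTPRC was at 0.00, and NKG7 and S100A9 were at -0.38 and -0.37. The T cell genes were divided, with CD2, CD3E and CD3D at 0.43, 0.39 and 0.33, CD4 at 0.06 and CD8A at -0.33. Of 12 endothelial and stellate markers, 5 (41.7%) were higher and 7 lower, and 6 lay above genes of like length. They ran from -0.40 for STAB2 to 0.34 for DCN, with PECAM1 at -0.35. Of 6 measured bile duct markers, 4 (66.7%) were higher, and 4 lay above genes of like length, with EPCAM at 0.52 and KRT7 at -0.30. Summed marker levels could not be given, since the levels had lost their magnitude, and the part of other cells in the proteasome ratios was not tested.

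The deposited splicing tables hold 46 events in 39 genes, and none of the 46 proteasome genes, nor of the 11 under other symbols, was among them.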

How the data were processed

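Poly-A RNA of 5 control and 5 squalene rabbits was sequenced as paired reads, and each library was taken as a rabbit, although a legend of the study calls the sequenced samples partially pooled. After quality filtering, the authors aligned reads with HISAT2 to the rabbit genome (OryCun2.0) and with Bowtie to reference and predicted transcripts, and computed gene levels with RSEM and splicing events with rMATS. Versions are not given in the sources used here.

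The deposited expression table holds, as a score of unstated scale, 1 level made by the authors per diet. How rabbits were combined is not stated, and with no value per rabbit no p-value was computed. Levels of 1 or more had lost their decimal mark. The log2 ratio of both levels was computed, with the power of 10 that brings them closest. Among 2953 genes with both levels under 1, whose mark is kept, the largest absolute log2 ratio was 0.86, below the 1.66 at which this choice would fail. This covers genes of low level only. Larger differences do occur among the others, since the study lists log2 ratios beyond 1.66 from its sequencing, for example for LOC100344375, OST4 and FAM91A1. Genes of this kind enter the shares over all genes with a misread ratio, which can have the wrong sign. A gene beyond 1.66 is misread, and no ratio here reaches it by construction. The table also holds the authors' log2 fold change, p-value, adjusted p and direction per gene, which were not used. The planned test of splicing events was not run, since none lies in a proteasome gene. The deposited percent of ribosomal RNA and the clean reads per library were computed by the authors.

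Ratios were counted by direction and beyond a fold of 1.2, beside all genes. The length parts hold 10% of genes each, and this comparison was chosen after seeing the data. Members, lists and rules were chosen with earlier results of these data known. Named are all 46 genes, the 3 genes of each list with the largest ratio, NFE2L1, NFE2L2, POMP and UBB, and genes needed beside them (PAAF1, TAP1, TAP2, ALB, PTPRC, S100A9, CD3D, CD4, CD8A), which were chosen after their values were seen. Some genes that this rule names are not reported here. RefSeq annotation of mOryCun1.1 matched 45 of the 46 gene IDs and served for names and neighbours only. Sequences of these genes were not analysed here, so the planned motif search was not run. The 30 library columns of the deposited site tables carry positions without gene names and were not used. Python 3.11.15, numpy 2.4.6, pandas 2.3.3 and matplotlib 3.10.9 were used. The recovery of ratios was tested on simulated data, where it was required only for log2 ratios of a size under 1.66.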

Additional observations from a re-analysis of the deposited data

How the results depend on the processing

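Medians and counts of the core, cap, activators, PSMG chaperones and all 46 genes moved little with ratios centred on the median of all genes. Little means under 0.1 for medians and up to 1.5 times for counts. Leaving out predicted genes or genes with tied levels took out none of the 46, so their values could not move. PSMC3IP is in none of the classes. Without it 31 genes were higher, 12 of them by a fold over 1.2, and the median was 0.19. Using only levels with the same number of digits moved these values as little, but the same choice of a power of 10 was applied. This left 38 genes, 27 of them higher, and 12 core genes, each higher. The cap median was then 0.13 in place of 0.08, with 10 of 17 genes higher. Centred, 11 genes in place of 13 were higher by a fold over 1.2. At a fold of 1.1 in place of 1.2, 27 of the 46 genes were higher and 11 lower, beside 33.6% and 28.9% of all genes. At 1.5, 0 were higher and 0 lower, beside 4.7% and 3%. With genes of other symbols added, 1 activator gene was higher in place of 0. After subtracting the median of genes of like length, an alternative chosen after seeing the data, the median of the cap reversed from 0.08 to -0.032. Those of the activators and the PSMG chaperones moved to -0.28 and 0.15, 1 activator lay above, and 7 genes were higher and 5 lower by a fold over 1.2, beside 18.5% and 16.5% of all genes. The median of the 46 genes fell from 0.20 to 0.11. No paired analysis was possible because the table gives 1 level per diet and no value per rabbit, and for the same reason no rabbit could be left out. Depth per gene is unknown, so no counting error can be given.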

Other observations

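Other large complexes were looked up after the proteasome values had been seen, so their values are descriptions. The COP9 signalosome and the translation initiation factor eIF3 share the fold of their subunits with the proteasome lid. Of 9 measured COP9 genes, 7 had a higher level on the squalene diet, beside 52.7% of all genes, and 6 lay above the median of genes of like length. Their median log2 ratio was 0.17, from -0.08 for COPS7A to 0.52 for COPS2. COPS5, the catalytic subunit that removes NEDD8 from cullins and a relative of PSMD14, was at 0.27 beside -0.10 for PSMD14. Of 11 measured eIF3 genes, 9 were higher, with a median of 0.05, and 5 lay above the median of genes of like length. EIF3E was at 0.76 (1.69-fold), EIF3F and EIF3M at 0.55 each and EIF3H at 0.36. The large subunits EIF3A and EIF3B, with lengths of 5293 and 4007 bases, were at -0.16 and -0.34. Of 8 measured genes of the CCT chaperonin, which folds actin and tubulin and also has stacked rings, 4 were higher and 4 lower, with a median of -0.02, from -0.20 for CCT6A to 0.51 for CCT2.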
